A study of Mus musculus with 3 samples.

Results

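G protein-coupled receptors, the heterotrimeric G proteins that they switch on and the Rgs proteins that help to switch these off were followed in 3 sorted cell populations of IL-10 Venus mice. The members were the genes whose array symbol begins with Gpr, P2rx, P2ry, Ptger, Lpar, Ador, Adra, Adrb, Rgs, Gna, Gnb, Gng or S1pr in the numbered forms used for these families, with Gpr183 left out. There were 157 such genes among the 16390 genes with a symbol, and none of them stood under an Lpar or S1pr symbol. The pattern also took in relatives by name: the receptor kinases Adrbk1 and Adrbk2, the P2X channels, which are opened by ATP and use no G protein, and 9 other membrane proteins under Gpr symbols.

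The samples were Venus+ CD138hi cells of the bone marrow, Venus+ CD138hi cells of the spleen and B220+ cells of the spleen, with 1 array for each. All came freshly sorted from mice whose Venus fluorescent protein reports the cytokine gene Il10, so the reporter was carried by the B220+ donors too. CD138 (syndecan-1) marks plasma cells and B220 marks B cells. The B220+ sort was taken from the spleen alone, so in marrow Venus+ against B220+ cells the organ and the cell type differ together and cannot be told apart. The labels used here do not state the age, sex or number of the mice. With 1 array a group there is no replicate, no test and no p-value, and every difference below describes these 3 arrays.

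A receptor of this family spans the membrane and, when its ligand binds, loads the alpha subunit of a G protein with GTP and frees it from the beta and gamma subunits. Alpha subunits of the Gs class raise cyclic AMP, those of the Gi class lower it, and those of the Gq class activate phospholipase C beta. Rgs proteins speed the hydrolysis of GTP by Gi and Gq alpha subunits, and receptor kinases with arrestins end the signal at the receptor. In B cells such receptors guide movement to follicles, into germinal centres and out of the organ, and plasma cells are known for a different set of homing receptors.

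Signals are linear fluorescence intensities above the blank spots, scaled so that the median detected probe of each array is 25. Each is compared with the same probe on another array and not with other probes. The terms higher and lower, used as calls, mean a difference of at least 2-fold between arrays that both detected the gene. A gene seen on 1 array of a pair has only a lower bound for its fold, set against the dimmer array's lowest detected signal or its own signal, whichever was higher. The spot error given with a log2 ratio combines the spread of blank spots with that of repeated positive-control spots, and covers spots within an array and no biological spread. Because each array measured a bulk sort, fewer cells of a type and less RNA per cell cannot be told apart.

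Of 23473 probes, 67.6% were detected in marrow Venus+, 73.4% in spleen Venus+ and 72.1% in B220+ cells. Spots without a probe passed the detection limit in 26.6% of cases in marrow Venus+, 9.26% in spleen Venus+ and 48.3% in B220+ cells. Markers of plasma cells summed to 48579 in marrow Venus+, 36952 in spleen Venus+ and 2818 in B220+ cells. Markers of mature B cells summed to 4452 in marrow Venus+, 10968 in spleen Venus+ and 30496 in B220+ cells. In spleen Venus+ cells 13 of 13 plasma cell markers were higher than in B220+ cells, and 11 of 12 mature B cell markers were lower. Other cell types were seen too. Neutrophil and precursor markers (15 on the array, Mmp9 on no array) summed to 578 in marrow Venus+, 142 in spleen Venus+ and 5254 in B220+ cells, with S100a9 at 69.4 in marrow Venus+, not detected in spleen Venus+ and at 2552 in B220+ cells. Not all of that list ran this way, as Ly6g stood at 334 in marrow Venus+, 99.6 in spleen Venus+ and 38.9 in B220+ cells and Mpo at 29.8 in marrow Venus+, not detected in spleen Venus+ and at 2.22 in B220+ cells. T cell markers (13 on the array) summed to 1658 in marrow Venus+, 1412 in spleen Venus+ and 62.6 in B220+ cells, on the Venus+ arrays mostly from Cd247 and Cd28. Cd3e was at 17.8 in marrow Venus+ and 7.55 in spleen Venus+ cells and not detected in B220+ cells, while Cd3g (8.95 in marrow and 55.7 in spleen Venus+ cells) and Cd5 (7.71 in marrow and 82.9 in spleen Venus+ cells) read higher in spleen Venus+ cells. The part of either marker set in the receptor values was not tested.

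The promoters of 5 members on which the results turn are shown first, because their genes had large differences in signal that ran the same way on both Venus+ arrays. Each covers 250 bases before to 50 bases after the annotated start, 5′ to 3′ on the gene's own strand, from RefSeq on GRCm38.p6. Rgs2 lies at chr1:144004100-144004399 on the minus strand, P2ry10 at chrX:107088242-107088541 on the plus strand and Lpar6 (on the array as P2ry5) at chr14:73237641-73237940 on the plus strand. Ptger4 lies at chr15:5244138-5244437 on the minus strand and Rgs10 at chr7:128418123-128418422 on the minus strand. P2ry10 has 2 annotated starts, and the first in the table is printed. Capitals mark matches on either strand to TGACG (the core of the cyclic AMP response element), GTGAAAG (in sites bound by Blimp1, a repressor of the B cell programme in plasma cells), GGAAGTG (bound by PU.1) and ATGCAAA (in the octamer bound by Oct factors).
Rgs2: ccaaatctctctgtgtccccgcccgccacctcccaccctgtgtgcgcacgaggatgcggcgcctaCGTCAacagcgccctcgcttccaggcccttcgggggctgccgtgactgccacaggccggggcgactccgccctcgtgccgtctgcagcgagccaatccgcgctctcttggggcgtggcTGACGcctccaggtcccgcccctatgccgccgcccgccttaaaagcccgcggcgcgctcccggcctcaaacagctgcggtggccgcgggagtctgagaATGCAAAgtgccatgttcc
P2ry10: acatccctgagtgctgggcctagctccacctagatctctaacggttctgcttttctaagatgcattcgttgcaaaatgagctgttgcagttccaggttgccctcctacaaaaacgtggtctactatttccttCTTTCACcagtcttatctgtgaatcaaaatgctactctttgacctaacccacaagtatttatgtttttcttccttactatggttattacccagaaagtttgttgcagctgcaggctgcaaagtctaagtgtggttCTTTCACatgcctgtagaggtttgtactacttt
Lpar6: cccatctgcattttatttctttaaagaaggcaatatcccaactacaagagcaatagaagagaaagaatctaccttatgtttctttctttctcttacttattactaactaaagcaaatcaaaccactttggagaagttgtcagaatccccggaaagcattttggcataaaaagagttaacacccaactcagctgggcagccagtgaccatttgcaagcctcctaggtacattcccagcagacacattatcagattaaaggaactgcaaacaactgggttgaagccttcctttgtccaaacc
Ptger4: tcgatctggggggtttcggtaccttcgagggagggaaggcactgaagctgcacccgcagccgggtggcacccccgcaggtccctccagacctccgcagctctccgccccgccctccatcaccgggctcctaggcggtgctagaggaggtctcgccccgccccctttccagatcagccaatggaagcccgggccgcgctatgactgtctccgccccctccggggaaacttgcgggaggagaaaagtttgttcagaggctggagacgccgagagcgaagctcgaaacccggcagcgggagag
Rgs10: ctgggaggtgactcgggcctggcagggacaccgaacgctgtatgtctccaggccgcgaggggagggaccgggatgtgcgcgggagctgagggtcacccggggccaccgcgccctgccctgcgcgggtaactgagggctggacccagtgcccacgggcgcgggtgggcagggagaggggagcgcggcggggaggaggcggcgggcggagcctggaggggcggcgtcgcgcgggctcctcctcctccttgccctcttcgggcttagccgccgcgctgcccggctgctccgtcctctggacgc

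Rgs2 held 2 matches to TGACG, with first bases at -185 and -67 from the start, and 1 to ATGCAAA at 32. P2ry10 held 2 matches to GTGAAAG, at -118 and 18, both on the opposite strand, while the window of its second start, not printed, held none and 1 match to TGACG at -103. No match overlapped another, and no match to the 4 motifs lay in the printed windows of Lpar6, Ptger4 and Rgs10. Of all 32851 promoters of this length, 20.8% held TGACG, 4.24% GTGAAAG, 11% GGAAGTG and 4.63% ATGCAAA. These matches describe letters and not binding.

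Many members were unseen. In marrow Venus+ cells 90 were detected, in spleen Venus+ cells 98 and in B220+ cells 89. On all 3 arrays 75 were detected, 47.8% of the members against 65.7% of all genes, and 50 were detected on none, 31.8% against 20.1%. Of the detected members, 10 in marrow Venus+, 2 in spleen Venus+ and 13 in B220+ cells lay below a limit taken from the spots without a probe. That limit also lowers the bounds of genes seen on 1 array of a pair. Against B220+ cells, of 13 members with a bound of at least 2-fold higher in marrow Venus+ cells 6 kept one, and of 9 in spleen Venus+ cells 6 did. Of those lower by such a bound, 4 of 5 kept it in marrow and 1 of 1 in spleen Venus+ cells.

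In spleen Venus+ against B220+ cells, 82 members were detected on both arrays. By the 2-fold rule 16 were higher and 12 lower, where 15.7% of all genes were higher and 16.5% lower. As shares, 19.5% of members were higher and 14.6% lower, both within about 4 percentage points of the background. The median member log2 ratio was 0.23, against -0.02 for all genes.

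In marrow Venus+ against B220+ cells, 76 members were detected on both arrays, with 23 higher and 12 lower, where 22.4% of all genes were higher and 30.7% lower. Thus 30.3% of members were higher and 15.8% lower. The median was 0.06, and -0.24 for all genes, so members lay 0.30 above the array as a whole. Scaling on the probes detected on all 3 arrays added 0.29 to every log2 ratio of this pair, which put the median of all genes at 0.05 and gave 29 members higher and 12 lower, with 28.3% of all genes higher and 24.1% lower. Quantile normalization gave 19 higher and 19 lower, with 19.96% of all genes higher and 29.5% lower.

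In marrow against spleen Venus+ cells, 87 members were detected on both arrays, with 6 higher and 7 lower, where 4.33% of all genes were higher and 15.2% lower. As shares, 6.90% of members were higher and 8.05% lower. The median was -0.02, against -0.17 for all genes. Here the other scaling added 0.33 to every log2 ratio, moved the median of all genes to 0.16 and turned the split to 15 members higher and 2 lower, with 11.0% of all genes higher and 8.07% lower.

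The calls differed in how far above background they lay. The 16 members higher in spleen Venus+ cells had a median signal of 29.2 there and 6.25 in B220+ cells, where 11 of them were under 10. The 12 lower members had medians of 38.8 in spleen Venus+ and 265 in B220+ cells, where none was under 10. All genes showed the same order, with B220+ medians of 7.66 for the higher and 114 for the lower. In another setting the local background recorded beside each spot replaced the blank spots, with a model that avoids negative values. That setting also adds an offset of 50, which shrinks the ratios of dim spots, and these changes were not separated. It is called the local background below, offset included. Under it 1 member was higher and 8 lower in spleen Venus+ cells, and 1 higher and 4 lower in marrow Venus+ cells. The 1 higher in spleen Venus+ cells was Gng10, which was lower as reported. Gnb1 (-1.64) and Gpr108 (-1.13) were among the lower ones there and were not called as reported. The shares of all genes also shrank, to 3.10% higher and 4.38% lower in spleen and 2.96% higher and 9.46% lower in marrow Venus+ cells. Under that background the calls of Gnai3, Gpr18 and Gpr171 remained in both comparisons, with those of Rgs2 and Lpar6 in spleen Venus+, Adrbk1 in marrow Venus+ and, among the higher members, Rgs10 in marrow Venus+ cells. No other call against B220+ cells remained, and none between the Venus+ populations.

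**Figure D1:**
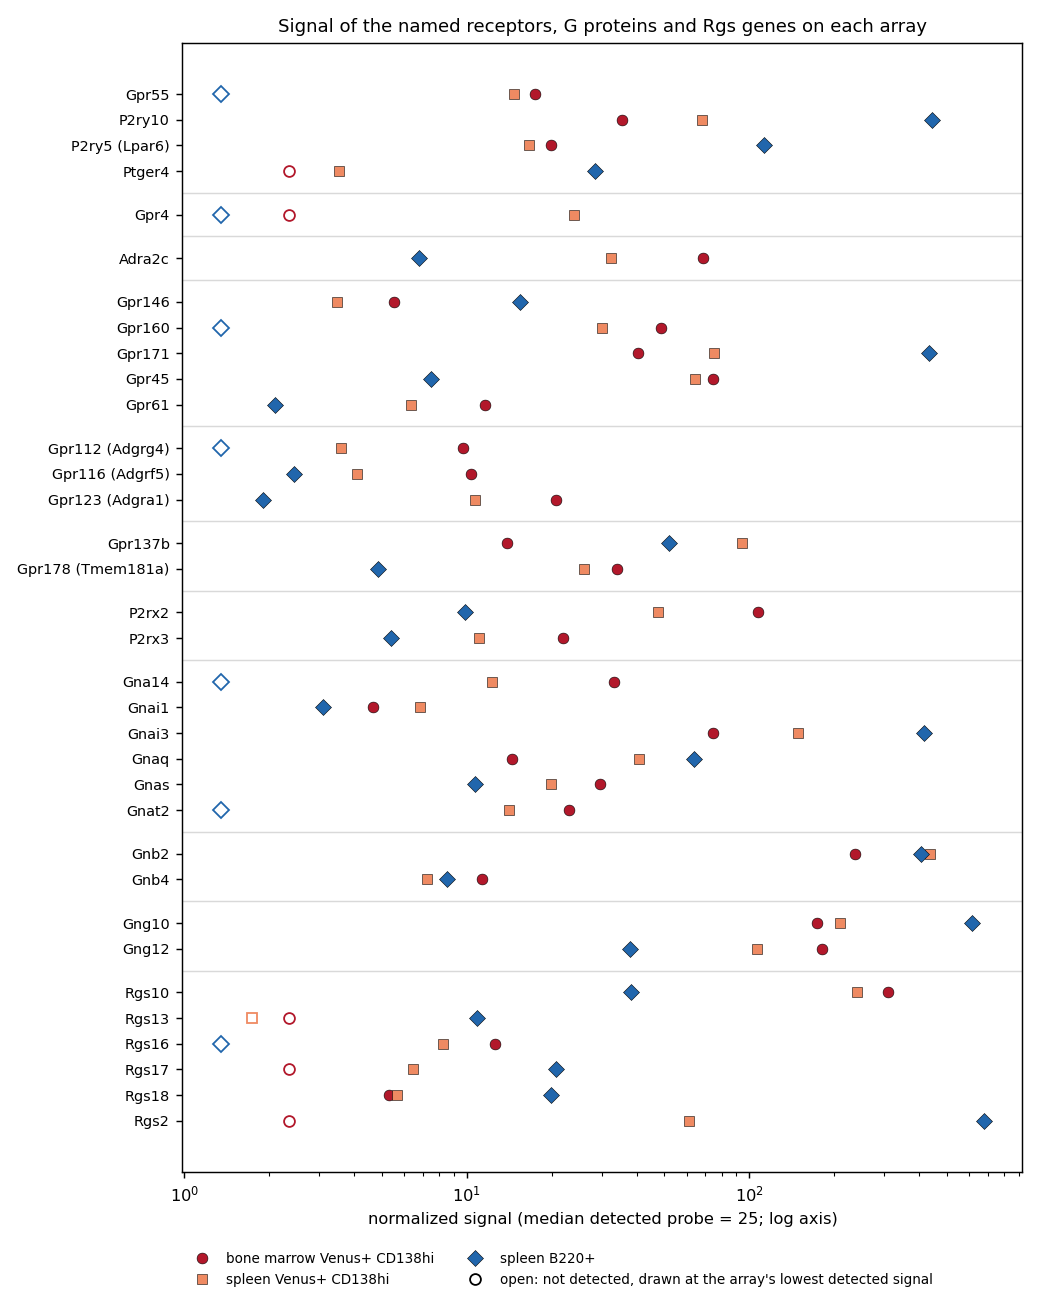
Normalized signal (log scale, arbitrary units, median detected probe set to 25) of the 34 members named by rule in marrow Venus+ CD138hi, spleen Venus+ CD138hi and spleen B220+ cells, with 1 array each. Rgs2 was not detected in marrow Venus+ cells and stood at 679.8 in B220+ cells, and Rgs10 stood at 309 in marrow Venus+ and 38.0 in B220+ cells.

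Of the receptors for lipids detected on both arrays, most were lower in Venus+ than in B220+ cells. P2ry10, a receptor for lysophosphatidylserine, had a signal of 35.5 in marrow Venus+, 67.9 in spleen Venus+ and 444.6 in B220+ cells. Its log2 ratio over B220+ was -3.65 ± 0.14 (spot error) in marrow and -2.71 ± 0.14 in spleen Venus+ cells. Both Venus+ arrays were far below the B220+ array. This probe had a high local background, 94.0% of the spot in marrow Venus+, 80.8% in spleen Venus+ and 99.3% in B220+ cells. With the local background setting its ratio was 0.037 in marrow and 0.24 in spleen Venus+ cells, so the direction depends on the setting used.

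Lpar6 (P2ry5), a receptor for lysophosphatidic acid, had signals of 19.8 in marrow Venus+, 16.5 in spleen Venus+ and 112 in B220+ cells, or log2 ratios of -2.50 ± 0.16 in marrow and -2.76 ± 0.16 in spleen Venus+ cells. The Venus+ arrays were close to each other. Ptger4, the EP4 receptor for prostaglandin E2, which couples to Gs, was not detected in marrow Venus+ cells and stood at 3.53 in spleen Venus+ and 28.3 in B220+ cells. It was therefore at least 12.1-fold lower in marrow Venus+ cells, or 8.26-fold under the limit that probe-free spots give. Its log2 ratio in spleen Venus+ cells was -3.01 ± 0.38. The other prostaglandin E2 receptors on the array, Ptger1, Ptger2 and Ptger3, were detected on no array.

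Gpr18, a receptor for which several lipid ligands have been proposed, was lower in both Venus+ populations. Its signal was 384 in marrow Venus+, 500.3 in spleen Venus+ and 1182 in B220+ cells, and its log2 ratios over B220+ were -1.62 ± 0.13 in marrow and -1.24 ± 0.14 in spleen Venus+ cells. Gpr55, a receptor for lysophosphatidylinositol, ran the other way. It stood at 17.4 in marrow and 14.7 in spleen Venus+ cells and was not detected in B220+ cells, which makes it at least 12.96-fold higher in marrow and 10.9-fold higher in spleen Venus+ cells. Gpr23 (Lpar4), a further lysophosphatidic acid receptor, was dim at 5.05 in marrow Venus+, 4.39 in spleen Venus+ and 1.34 in B220+ cells, the last being the lowest level that counted as detected. Gpr34, also a lysophosphatidylserine receptor, was seen in B220+ cells alone, at 2.40. The counts for the 14 lipid receptors were 1 higher and 3 lower of 4 in marrow Venus+ cells, and 1 higher and 4 lower of 5 in spleen Venus+ cells, where all genes had 22.4% higher and 30.7% lower in marrow and 15.7% higher and 16.5% lower in spleen Venus+ cells. P2ry10 is among the lower ones. With the local background, of these calls Gpr18 remained in marrow and Gpr18 and Lpar6 in spleen Venus+ cells, and Gpr23 was at 0.053 in marrow and -0.034 in spleen Venus+ cells.

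Among receptors and channels for nucleotides, several were higher in Venus+ cells, and none detected on both arrays of a pair was lower by the 2-fold rule. P2rx2, an ATP-gated channel best known from neurons, had signals of 107 in marrow Venus+, 47.4 in spleen Venus+ and 9.89 in B220+ cells. The 3 arrays formed steps, with log2 ratios of 3.44 ± 0.16 in marrow and 2.26 ± 0.17 in spleen Venus+ cells and 1.18 ± 0.12 between marrow and spleen Venus+. P2rx3, its partner in sensory neurons, stood at 21.99 in marrow Venus+, 11.1 in spleen Venus+ and 5.39 in B220+ cells, or 2.03 ± 0.24 in marrow and 1.04 ± 0.25 in spleen Venus+ cells.

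P2rx4, an ATP-gated channel of many immune cells, had 147 in marrow Venus+, 158 in spleen Venus+ and 63.4 in B220+ cells, so the Venus+ arrays lay together above the B220+ array. P2rx7, the channel through which ATP acts on many lymphocytes, was seen in marrow Venus+ cells alone, at 3.51. Of the 6 P2X channels, 4 of 5 detected were higher in marrow Venus+ cells and 3 of 5 in spleen Venus+ cells, and none was lower, where 22.4% of all genes were higher in marrow and 15.7% in spleen Venus+ cells. None of these calls remained with the local background, on which P2rx2 was at 0.54, P2rx3 at 0.024 and P2rx4 at 0.032 in marrow Venus+ cells, and P2rx2 at 0.24, P2rx3 at -0.14 and P2rx4 at 0.90 in spleen Venus+ cells. P2ry2, a receptor for ATP and UTP that couples to Gq, stood at 17.8 in marrow Venus+, 12.6 in spleen Venus+ and 5.60 in B220+ cells, and P2ry14, a receptor for UDP-glucose, at 15.3 in marrow Venus+, 10.1 in spleen Venus+ and 6.87 in B220+ cells. Adora3, a Gi-coupled adenosine receptor, stood at 26.1 in marrow Venus+, 19.7 in spleen Venus+ and 15.7 in B220+ cells, under 2-fold in either comparison. P2ry1, P2ry6 and P2ry12 were detected on no array.

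Adra2c, an alpha-2 adrenergic receptor that couples to Gi, was 68.4 in marrow Venus+, 32.5 in spleen Venus+ and 6.79 in B220+ cells. Its log2 ratios over B220+ were 3.33 ± 0.20 in marrow and 2.26 ± 0.20 in spleen Venus+ cells, and marrow exceeded spleen Venus+ by 1.07 ± 0.12. Adra1b, an alpha-1 adrenergic receptor that couples to Gq, was dim, at 5.01 and 2.20 in marrow and spleen Venus+ cells and not detected in B220+ cells. Among receptors for metabolites, Hcar2 (Gpr109a), which binds niacin and hydroxybutyrate, stood at 22.2 in marrow Venus+, 17.1 in spleen Venus+ and 9.38 in B220+ cells, and Ffar3 (Gpr41), for short-chain fatty acids, at 6.40 in marrow Venus+, 4.37 in spleen Venus+ and 3.30 in B220+ cells.

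Gpr4, a proton-sensing receptor known mainly from endothelium, was seen in spleen Venus+ cells alone, at 24.0. That is at least 17.8-fold higher than in B220+ cells, and marrow Venus+ cells were at least 10.2-fold lower than spleen Venus+ cells. The bound between marrow and spleen Venus+ cells was 6.98-fold under the limit that probe-free spots give. Gpr65, the proton sensor of lymphocytes, differed little, at 37.6 in marrow Venus+, 58.9 in spleen Venus+ and 44.5 in B220+ cells. Stromal and endothelial markers summed to 109 in marrow Venus+, 123 in spleen Venus+ and 197 in B220+ cells, and their part in Gpr4 was not tested.

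**Figure D2:**
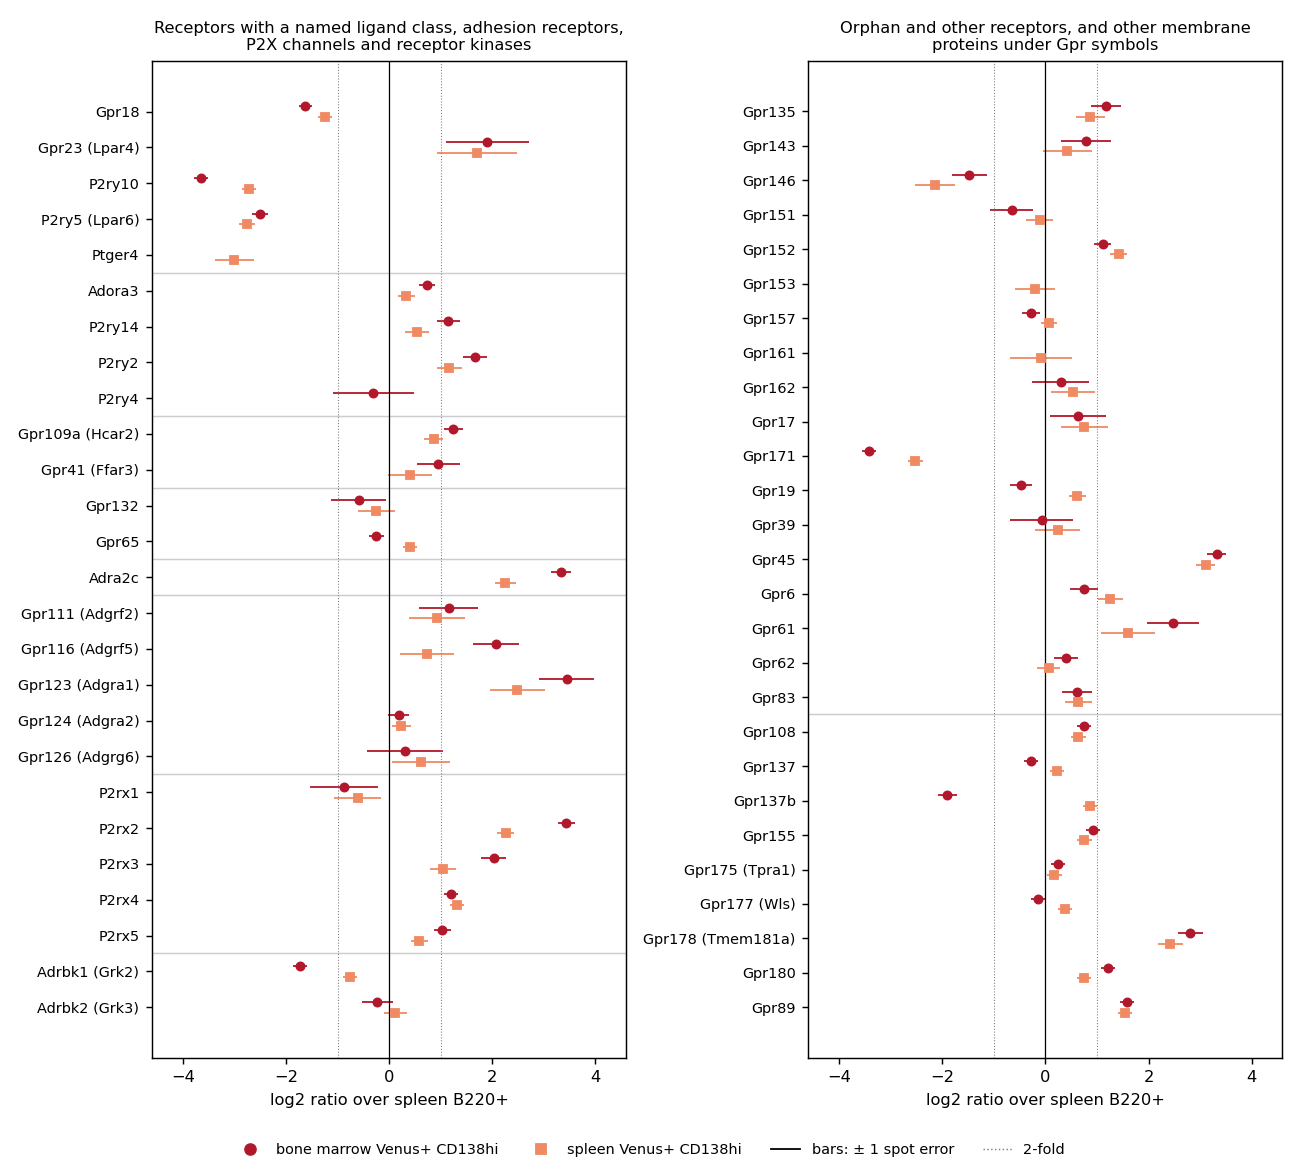
Log2 ratio over spleen B220+ cells of the receptors, P2X channels, receptor kinases and other membrane proteins detected on both arrays of a pair. Circles are marrow Venus+ and squares spleen Venus+ CD138hi cells, bars are 1 spot error either way and dotted lines mark 2-fold. P2ry10, Lpar6, Ptger4 and Gpr171 lie left of -2 and P2rx2, Adra2c, Gpr45 and Gpr123 right of 2.

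Among adhesion receptors, which carry a long extracellular part, the detected ones were dim in B220+ cells. Gpr123 (Adgra1) had signals of 20.7 in marrow Venus+, 10.7 in spleen Venus+ and 1.90 in B220+ cells, with log2 ratios of 3.45 ± 0.53 in marrow and 2.49 ± 0.54 in spleen Venus+ cells. Gpr116 (Adgrf5) stood at 10.4 in marrow Venus+, 4.08 in spleen Venus+ and 2.45 in B220+ cells, and Gpr112 (Adgrg4) at 9.73 in marrow and 3.60 in spleen Venus+ cells and not detected in B220+ cells. Gpr112 was at least 7.24-fold higher in marrow and 2.68-fold higher in spleen Venus+ cells than in B220+ cells, or 3.55-fold in marrow and 1.31-fold in spleen Venus+ cells under the limit that probe-free spots give. That limit also lowered other bounds over B220+ cells, with Gna14 at least 12.1-fold in marrow and 4.49-fold in spleen, Gnat2 8.38-fold in marrow and 5.14-fold in spleen, Gpr55 6.35-fold in marrow and 5.36-fold in spleen and Rgs16 4.59-fold in marrow and 3.00-fold in spleen Venus+ cells, and Gpr4 8.74-fold in spleen Venus+ cells. The B220+ signals of Gpr123, Gpr116, Gpr111 (Adgrf2, 2.22) and Gpr126 (Adgrg6, 2.33) were below the limit of 2.74 set by that array's spots without a probe. A list of 22 adhesion receptors on the array joined Adgr genes outside the symbol pattern with members under their current names. Gpr111, Gpr116, Gpr124 and Gpr126 are in it, and Gpr111 and Gpr116 are among its higher genes in marrow Venus+ cells. Its counts thus partly repeat those of the members. The list left out Gpr123 (Adgra1) and Gpr112 (Adgrg4), so its counts do not include them. In it 5 were higher and 1 lower of 8 in marrow Venus+ cells, and 3 higher and 0 lower of 8 in spleen Venus+ cells, against shares of 22.4% higher and 30.7% lower in marrow and 15.7% higher and 16.5% lower in spleen Venus+ cells over all genes. The exception was Adgre5 (CD97), at 237 in marrow Venus+, 705 in spleen Venus+ and 712 in B220+ cells.

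Of the orphan and other receptors, Gpr171 was bright in B220+ cells and low in Venus+ cells. Its signals were 40.2 in marrow Venus+, 75.2 in spleen Venus+ and 432 in B220+ cells, or log2 ratios of -3.43 ± 0.14 in marrow and -2.52 ± 0.14 in spleen Venus+ cells. Gpr45 showed the opposite picture, at 74.7 in marrow Venus+, 64.4 in spleen Venus+ and 7.47 in B220+ cells, or 3.32 ± 0.19 in marrow and 3.11 ± 0.19 in spleen Venus+ cells. Gpr160 was at 48.8 in marrow and 30.1 in spleen Venus+ cells and not detected in B220+ cells, so at least 36.3-fold higher in marrow and 22.4-fold higher in spleen Venus+ cells, or 17.8-fold in marrow and 11.0-fold in spleen Venus+ cells under the limit that probe-free spots give. Gpr61 was close to the limit, at 11.6 in marrow Venus+, 6.34 in spleen Venus+ and 2.09 in B220+ cells, the last below the limit from spots without a probe.

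Gpr146 could not be given a direction. Its own probe read 5.54 in marrow Venus+, 3.48 in spleen Venus+ and 15.4 in B220+ cells, with log2 ratios of -1.47 ± 0.34 in marrow and -2.15 ± 0.39 in spleen Venus+ cells. A second probe, annotated with an older name of the same gene, read 136 in marrow Venus+, 86.1 in spleen Venus+ and 30.9 in B220+ cells, with ratios of 2.14 in marrow and 1.48 in spleen Venus+ cells.

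Gpr6, which raises cyclic AMP without an added ligand, stood at 9.61 in marrow Venus+, 13.7 in spleen Venus+ and 5.71 in B220+ cells, and Gpr152 at 26.9 in marrow Venus+, 33.3 in spleen Venus+ and 12.5 in B220+ cells. In the 46 orphan and other receptors as a whole, 4 were higher and 2 lower of 16 in marrow Venus+ cells, and 4 higher and 2 lower of 18 in spleen Venus+ cells. The higher shares, 25.0% in marrow and 22.2% in spleen Venus+ cells, compare with 22.4% in marrow and 15.7% in spleen Venus+ cells over all genes, and the lower shares, 12.5% in marrow and 11.1% in spleen Venus+ cells, with 30.7% in marrow and 16.5% in spleen Venus+ cells.

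Several proteins under Gpr symbols are not known to act through G proteins. Gpr137b, a lysosomal membrane protein, was the member that differed most between the Venus+ populations among those detected in both. Its signals were 13.9 in marrow Venus+, 94.6 in spleen Venus+ and 51.9 in B220+ cells. The spleen Venus+ array was the highest and the marrow Venus+ array the lowest, with log2 ratios of -2.77 ± 0.17 for marrow over spleen Venus+, -1.90 ± 0.18 for marrow Venus+ over B220+ and 0.87 ± 0.14 for spleen Venus+ over B220+. With the local background the marrow Venus+ ratio over B220+ was 0.034. Gpr178 (Tmem181a) stood at 34.0 in marrow Venus+, 25.9 in spleen Venus+ and 4.84 in B220+ cells, with log2 ratios over B220+ of 2.81 ± 0.24 in marrow and 2.42 ± 0.25 in spleen Venus+ cells. Gpr89, the Golgi pH regulator, stood at 97.7 in marrow Venus+, 94.7 in spleen Venus+ and 32.5 in B220+ cells, so the Venus+ arrays differed by 0.05 ± 0.11 and both exceeded B220+ by more than 2-fold. Gpr177 (Wls), the carrier of Wnt proteins, differed little, at 59.0 in marrow Venus+, 84.5 in spleen Venus+ and 65.3 in B220+ cells.

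The G protein subunits differed one from another. Gnai2, the main Gi alpha subunit of lymphocytes, had signals of 598 in marrow Venus+, 882 in spleen Venus+ and 1029 in B220+ cells, and neither Venus+ array passed 2-fold. Gnai3, a second Gi alpha subunit, had 74.2 in marrow Venus+, 149 in spleen Venus+ and 417 in B220+ cells, with log2 ratios of -2.49 ± 0.13 in marrow and -1.49 ± 0.14 in spleen Venus+ cells and -1.01 ± 0.11 between marrow and spleen Venus+. The order was thus B220+ highest and marrow lowest for both, with the wider steps in Gnai3. Gnai1 was dim at 4.64 in marrow Venus+, 6.81 in spleen Venus+ and 3.09 in B220+ cells.

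Gnaq, a Gq alpha subunit, had 14.5 in marrow Venus+, 40.7 in spleen Venus+ and 63.8 in B220+ cells. Marrow stood apart, with log2 ratios of -2.14 ± 0.18 over B220+ and -1.49 ± 0.17 over spleen Venus+, while spleen Venus+ over B220+ was -0.65 ± 0.14. Gna11, the other widely expressed Gq alpha subunit, had 30.4 in marrow Venus+, 76.0 in spleen Venus+ and 58.1 in B220+ cells. Gna14, of the same class, ran the other way, at 33.1 and 12.3 in marrow and spleen Venus+ cells and not detected in B220+ cells, hence at least 24.6-fold higher in marrow and 9.17-fold higher in spleen Venus+ cells. Gna15, the Gq-class subunit of blood cells, stood at 6.71 in marrow Venus+, 4.20 in spleen Venus+ and 10.9 in B220+ cells.

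Gnas, the Gs alpha subunit, had 29.6 in marrow Venus+, 19.8 in spleen Venus+ and 10.7 in B220+ cells. Its log2 ratios were 1.47 ± 0.17 in marrow and 0.89 ± 0.18 in spleen Venus+ cells, so marrow passed 2-fold and spleen did not. Gna13, which restrains germinal centre B cells, differed by under 2-fold at 65.6 in marrow Venus+, 91.6 in spleen Venus+ and 83.6 in B220+ cells. Gnat2, the transducin alpha subunit of cone photoreceptors, read 23.0 and 14.1 in marrow and spleen Venus+ cells and was not detected in B220+ cells, at least 17.1-fold higher in marrow and 10.5-fold higher in spleen Venus+ cells. Of the 16 G alpha subunits, 1 was higher and 3 lower of 10 in marrow Venus+, and 1 higher and 2 lower of 10 in spleen Venus+ cells. Over all genes 22.4% were higher and 30.7% lower in marrow, and 15.7% higher and 16.5% lower in spleen Venus+ cells. The lower shares of G alpha subunits, 30% in marrow and 20% in spleen Venus+ cells, were thus near those of all genes.

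No G beta subunit detected on both arrays of a pair passed 2-fold, and Gnb5, at 3.20 in marrow and 2.21 in spleen Venus+ cells and not detected in B220+ cells, was at least 2.38-fold higher in marrow Venus+ cells, a bound that is lost under the limit that probe-free spots give, which the marrow signal does not reach. Gnb1 stood at 264 in marrow Venus+, 358 in spleen Venus+ and 373 in B220+ cells, Gnb2 at 237 in marrow Venus+, 437 in spleen Venus+ and 404 in B220+ cells and the dim Gnb4 at 11.3 in marrow Venus+, 7.20 in spleen Venus+ and 8.54 in B220+ cells. With the local background Gnb1 did pass 2-fold, at -1.64 for spleen Venus+ over B220+ and 1.22 for marrow over spleen Venus+ cells. Gamma subunits, which hold the beta subunit at the membrane, split. Gng12 had 181 in marrow Venus+, 107 in spleen Venus+ and 37.7 in B220+ cells, with log2 ratios of 2.26 ± 0.14 in marrow and 1.498 ± 0.14 in spleen Venus+ cells. Gng10 had 174 in marrow Venus+, 210.3 in spleen Venus+ and 614 in B220+ cells, with ratios of -1.82 ± 0.13 in marrow and -1.55 ± 0.14 in spleen Venus+ cells, which turned to 0.78 in marrow and 1.31 in spleen Venus+ cells with its local background. That background was 92.9% of the spot in marrow Venus+, 81.2% in spleen Venus+ and 108% in B220+ cells. Gng2, an abundant gamma subunit of lymphocytes, stood at 114 in marrow Venus+, 130 in spleen Venus+ and 171 in B220+ cells, under 2-fold.

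Of the kinases that phosphorylate active receptors, Adrbk1 (Grk2) had 116 in marrow Venus+, 227 in spleen Venus+ and 384 in B220+ cells, or log2 ratios of -1.73 ± 0.13 in marrow and -0.76 ± 0.14 in spleen Venus+ cells. Adrbk2 (Grk3) was dim and even, at 7.07 in marrow Venus+, 9.03 in spleen Venus+ and 8.28 in B220+ cells.

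Rgs2 had the lowest log2 ratio of any member in spleen Venus+ over B220+ cells, and Rgs10 the highest of the Rgs genes. Rgs2, which acts chiefly on Gq, was not detected in marrow Venus+ cells and had 61.1 in spleen Venus+ and 679.8 in B220+ cells. Marrow Venus+ cells were at least 289-fold lower than B220+ and at least 26.0-fold lower than spleen Venus+ cells. Under the limit that probe-free spots give, these bounds were 198-fold against B220+ and 17.8-fold against spleen Venus+ cells. Spleen Venus+ over B220+ was -3.48 ± 0.14 on the log2 scale. Rgs10, which acts on Gi and is abundant in myeloid and lymphoid cells, had 309 in marrow Venus+, 240.0 in spleen Venus+ and 38.0 in B220+ cells. Its ratios were 3.02 ± 0.14 in marrow and 2.66 ± 0.14 in spleen Venus+ cells, and with the local background 1.28 in marrow and 0.55 in spleen Venus+ cells.

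Rgs13, known from germinal centre B cells, was seen in B220+ cells alone, at 10.9, so marrow Venus+ cells were at least 4.62-fold and spleen Venus+ cells at least 6.25-fold lower. Under the limit that probe-free spots give, these bounds were 3.16-fold in marrow and 5.90-fold in spleen Venus+ cells. Rgs17 was not detected in marrow Venus+ cells and read 6.46 in spleen Venus+ and 20.7 in B220+ cells. Rgs18, known from platelets and granulocytes, stood at 5.31 in marrow Venus+, 5.66 in spleen Venus+ and 19.9 in B220+ cells, with ratios of -1.91 ± 0.35 in marrow and -1.82 ± 0.26 in spleen Venus+ cells. Neutrophil markers summed highest in B220+ cells, as given above, and platelet markers summed to 30.1 in marrow Venus+, 37.1 in spleen Venus+ and 66.7 in B220+ cells. Their part in Rgs18 was not tested. Rgs16, which acts on Gi and Gq and is induced by activation in lymphocytes, stood at 12.6 and 8.23 in marrow and spleen Venus+ cells and was not detected in B220+ cells, at least 9.36-fold higher in marrow and 6.12-fold higher in spleen Venus+ cells.

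Rgs1, a marker of activated B cells and a brake on chemokine signals, was dim, not detected in marrow Venus+ cells and at 2.07 and 2.64 in spleen Venus+ and B220+ cells. Rgs14 and Rgs19, both acting on Gi, differed by under 2-fold, at 51.1 in marrow Venus+, 72.3 in spleen Venus+ and 65.5 in B220+ cells and at 116 in marrow Venus+, 185 in spleen Venus+ and 172 in B220+ cells. Of the 19 Rgs genes, 2 were higher and 1 lower of 8 in marrow Venus+ cells, with a further 3 lower and 1 higher by a bound past 2-fold. In spleen Venus+ cells 1 was higher and 3 lower of 11, with 1 more each way by such a bound. Over all genes 22.4% were higher and 30.7% lower in marrow, and 15.7% higher and 16.5% lower in spleen Venus+ cells. Of all genes seen on 1 array of the pair, 653 of 711 were higher and 561 of 1350 lower by such a bound in marrow Venus+ cells. In spleen Venus+ cells 513 of 803 were higher and 149 of 547 lower by it.

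**Figure D3:**
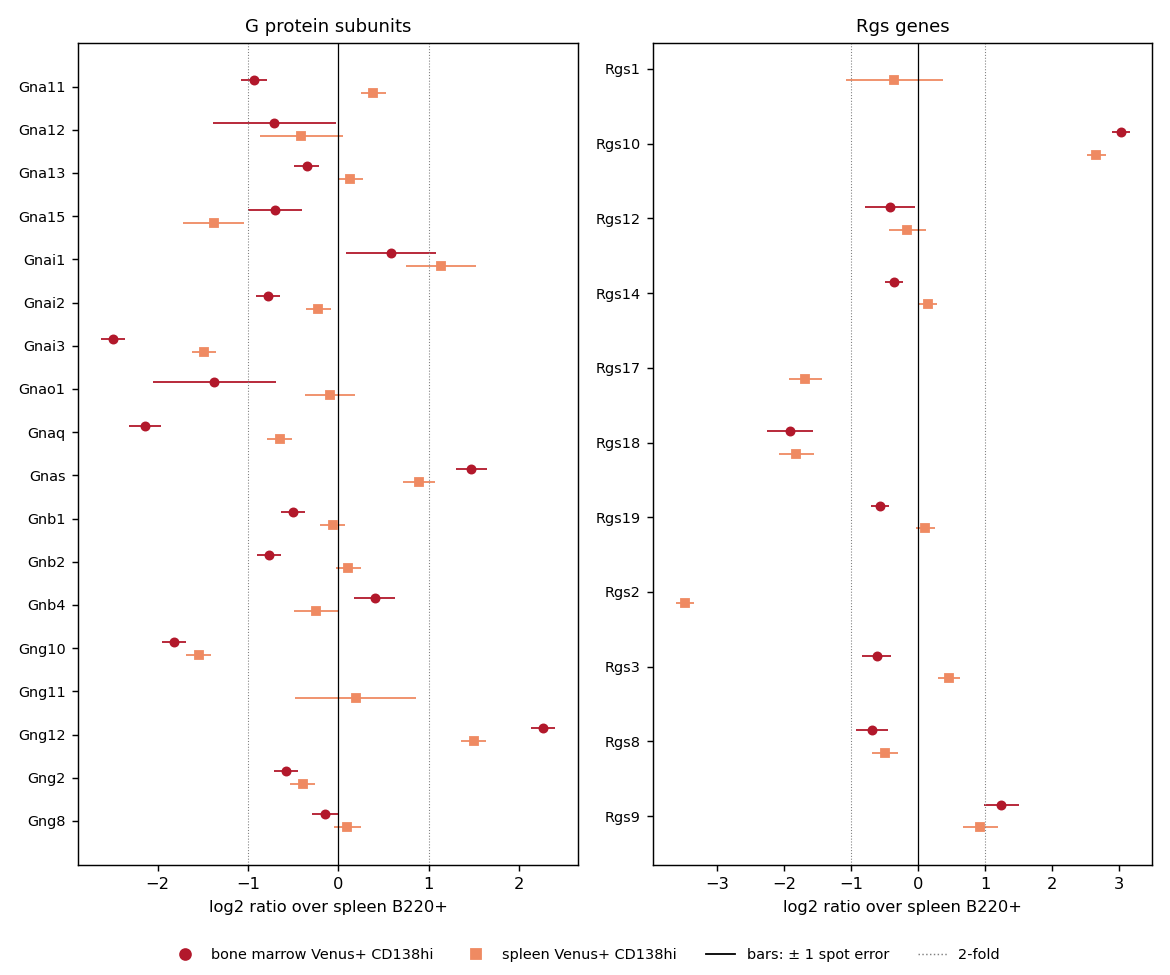
Log2 ratio over spleen B220+ cells of the G protein subunits and Rgs genes detected on both arrays, for marrow Venus+ and spleen Venus+ CD138hi cells. Rgs10 and Gng12 lie highest, at 3.02 and 2.26 in marrow Venus+ cells, and Rgs2 lowest, at -3.48 in spleen Venus+ cells.

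Several members lie next to each other in the genome, and neighbours did not always run together. On chromosome 1, Rgs2, Rgs13 and Rgs1 follow each other with no protein-coding gene between, and Rgs18 lies 1 gene beyond. All 4 read highest in B220+ cells, for Rgs1 by less than its spot error (-0.35 ± 0.72 in spleen Venus+ cells). On chromosome 19, Gnaq and Gna14 are adjacent, and Gnaq was lower and Gna14 higher in marrow Venus+ than in B220+ cells. On chromosome 3, Gnat2, Gnai3 and Gpr61 are adjacent, with Gnai3 lower and the other two higher in both Venus+ populations. Elsewhere on chromosome 3, Gpr171 lies beside P2ry14, the first lower and the second at a log2 ratio of 1.15 ± 0.22 in marrow and 0.55 ± 0.23 in spleen Venus+ cells. With the local background Gpr61 turned to -0.047 in spleen Venus+ cells.

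Further called members were P2rx5, Rgs9, Gpr111, Gpr135 and Gpr180, higher in marrow Venus+ than in B220+ cells by 2.05-fold to 2.37-fold. Gnao1 was 2.59-fold lower in marrow Venus+ than in B220+ cells (-1.37 ± 0.68). Its marrow signal, 2.60, lay below the limit of 3.43 that probe-free spots give on that array. Between the Venus+ populations, Rgs3 stood at 10.7 in marrow and 22.6 in spleen Venus+ cells and Gpr19 at 10.4 in marrow and 22.2 in spleen Venus+ cells, both lower in marrow. Gnao1 was called lower in marrow than in spleen Venus+ cells too, at -1.28 ± 0.69. On both Venus+ arrays and not in B220+ cells 12 members were detected, of which the 5 not described above or only in passing (Gnat1, Gnb5, Gpr37l1, Gpr82 and Gpr149) were all under 4. Besides Gpr4, 3 were seen in spleen Venus+ cells alone (Gnaz, Gng13 and Gpr158) and, besides P2rx7, Gpr12 in marrow Venus+ cells alone. Marrow Venus+ and B220+ cells alone shared P2ry4, at 2.44 in marrow Venus+ and 3.01 in B220+ cells. Gng11, Gpr153 and Gpr161 were under 5 in spleen Venus+ and B220+ cells and not detected in marrow Venus+ cells. Besides Rgs13 and Gpr34, B220+ cells alone showed Rgs9bp, Gpr56, P2ry13 and Gpr141, each under 2. The 50 members detected on no array were 2 G alpha subunits (Gnal and Gnat3), Gnb3, 2 G gamma subunits (Gng4 and Gng7) and 6 Rgs genes (Rgs4, Rgs5, Rgs6, Rgs7, Rgs11 and Rgs20). Also unseen were 7 adhesion receptors (Gpr64, Gpr97, Gpr110, Gpr115, Gpr125, Gpr128 and Gpr133), 7 lipid receptors (Ptger1, Ptger2, Ptger3, Gpr44, Gpr84, Gpr119 and Gpr120), Gpr81 and the 3 P2ry receptors named above. The last 21 were orphan and other receptors: Gpr1, Gpr3, Gpr15, Gpr20, Gpr21, Gpr22, Gpr26, Gpr30, Gpr33, Gpr35, Gpr37, Gpr50, Gpr63, Gpr75, Gpr85, Gpr101, Gpr103, Gpr142, Gpr165, Gpr173 and Gpr176.

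The rest of the pathway was described from lists, some of which share genes with the members. Their counts stand against 22.4% higher and 30.7% lower of all genes in marrow and 15.7% higher and 16.5% lower in spleen Venus+ cells. Of chemokine, egress and other chemoattractant receptors, 42 were on the array. They include Gpr183 and the member Gpr44 (Ptgdr2), the latter detected on no array. In marrow Venus+ cells 4 were higher and 5 lower of 17, and in spleen Venus+ cells 6 higher and 7 lower of 20. As shares, 23.5% of these receptors were higher and 29.4% lower in marrow Venus+ cells, close to all genes. In spleen Venus+ cells 30% were higher and 35% lower, both above the shares of all genes. Cxcr5, which leads B cells to follicles, had 7.78 in marrow Venus+, 445 in spleen Venus+ and 829 in B220+ cells, a log2 ratio of -5.84 ± 0.25 between marrow and spleen Venus+. S1pr1, the receptor for exit into blood, was not detected in marrow Venus+ cells and had 194 in spleen Venus+ and 874 in B220+ cells. Gpr183, which positions B cells by oxysterols, had 23.1 in marrow Venus+, 35.6 in spleen Venus+ and 557 in B220+ cells. Ccr10, a homing receptor of plasma cells, ran the other way, with 106 in marrow and 16.8 in spleen Venus+ cells and none detected in B220+ cells.

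Of genes that make and break down cyclic AMP, 3 were higher and 7 lower of 15 in marrow Venus+ cells, and 2 higher and 4 lower of 14 in spleen Venus+ cells. The lower shares were 46.7% in marrow and 28.6% in spleen Venus+ cells, against 30.7% in marrow and 16.5% in spleen Venus+ cells for all genes. Pde4b, a phosphodiesterase of lymphocytes, had 38.3 in marrow Venus+, 163 in spleen Venus+ and 646 in B220+ cells, and Adcy7, a cyclase of B cells, 10.6 in marrow Venus+, 43.4 in spleen Venus+ and 131 in B220+ cells. Pde4a went the other way, at 50.1 in marrow Venus+, 31.4 in spleen Venus+ and 5.99 in B220+ cells. Of cyclic AMP effectors, 6 were higher and 12 lower of 22 in marrow Venus+ cells, with a median log2 ratio of -1.79 against -0.24 for all genes. In spleen Venus+ cells 4 were higher and 8 lower of 23. Prkar1a, the regulatory subunit of protein kinase A, had 46.2 in marrow Venus+, 80.2 in spleen Venus+ and 285 in B220+ cells, while Rapgef3 (Epac1) had 120 in marrow Venus+, 143 in spleen Venus+ and 22.6 in B220+ cells and Rapgef4 (Epac2) was seen in B220+ cells alone, at 46.0.

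Effectors of Gq and of free beta and gamma subunits were lower in 10 and higher in 2 of 18 in marrow Venus+ cells (median -1.76), and lower in 9 and higher in 1 of 20 in spleen Venus+ cells (median -0.06). Prkcb, the protein kinase C of B cell receptor signalling, had 14.1 in marrow Venus+, 142 in spleen Venus+ and 554 in B220+ cells. Plcb2, a phospholipase C beta of blood cells, had 20.3 in marrow Venus+, 56.3 in spleen Venus+ and 240 in B220+ cells, and Prkcq, the protein kinase C of T cells, was at 61.4 in marrow and 34.9 in spleen Venus+ cells and not detected in B220+ cells. T cell markers were higher in the Venus+ populations, as given above, and their part in Prkcq was not tested. Of the G12 and G13 effectors, 2 were higher and 2 lower of 7 in marrow Venus+, and 1 higher and 2 lower of 7 in spleen Venus+ cells. Receptor kinases and arrestins, a list that includes the members Adrbk1 and Adrbk2, had 1 higher and 3 lower of 7 in marrow Venus+ cells. In spleen Venus+ cells 0 were higher and 1 lower of 8. Arrb2 (beta-arrestin 2) was at 10.1 in marrow Venus+, 16.7 in spleen Venus+ and 61.3 in B220+ cells. Modulators of G proteins had 1 higher and 6 lower of 16 in marrow Venus+ cells, and 1 higher and 4 lower of 17 in spleen Venus+ cells. Nucb1, a Golgi calcium-binding protein that also binds Gi alpha, was the higher one, at 850 in marrow Venus+, 632 in spleen Venus+ and 63.2 in B220+ cells.

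Enzymes and carriers that make or remove the ligands included the largest differences found on any of these lists. Of 33 on the array, 8 were higher and 3 lower of 25 in marrow Venus+, and 10 higher and 0 lower of 26 in spleen Venus+ cells. Pla1a, the phospholipase that releases lysophosphatidylserine, the ligand of P2ry10, had 3000.5 in marrow Venus+, 1633 in spleen Venus+ and 7.29 in B220+ cells, log2 ratios of 8.69 ± 0.19 in marrow and 7.81 ± 0.19 in spleen Venus+ cells. Entpd3 and Entpd1 (CD39), which hydrolyse extracellular ATP, had 678 in marrow Venus+, 496 in spleen Venus+ and 5.98 in B220+ cells, and 71.9 in marrow Venus+, 77.2 in spleen Venus+ and 7.12 in B220+ cells. Ada, which deaminates adenosine, had 269.8 in marrow Venus+, 126 in spleen Venus+ and 16.0 in B220+ cells, and Adk, which phosphorylates it, 367 in marrow Venus+, 266 in spleen Venus+ and 38.2 in B220+ cells. With the local background the log2 ratio of Pla1a over B220+ cells was 5.01 in marrow and 3.62 in spleen Venus+ cells. On that background Pde4a (0.38 in marrow and 0.26 in spleen Venus+ cells), Nucb1 (0.61 in marrow and 0.83 in spleen) and Arrb2 (-0.47 in marrow and -0.37 in spleen) did not pass 2-fold.

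**Figure D4:**
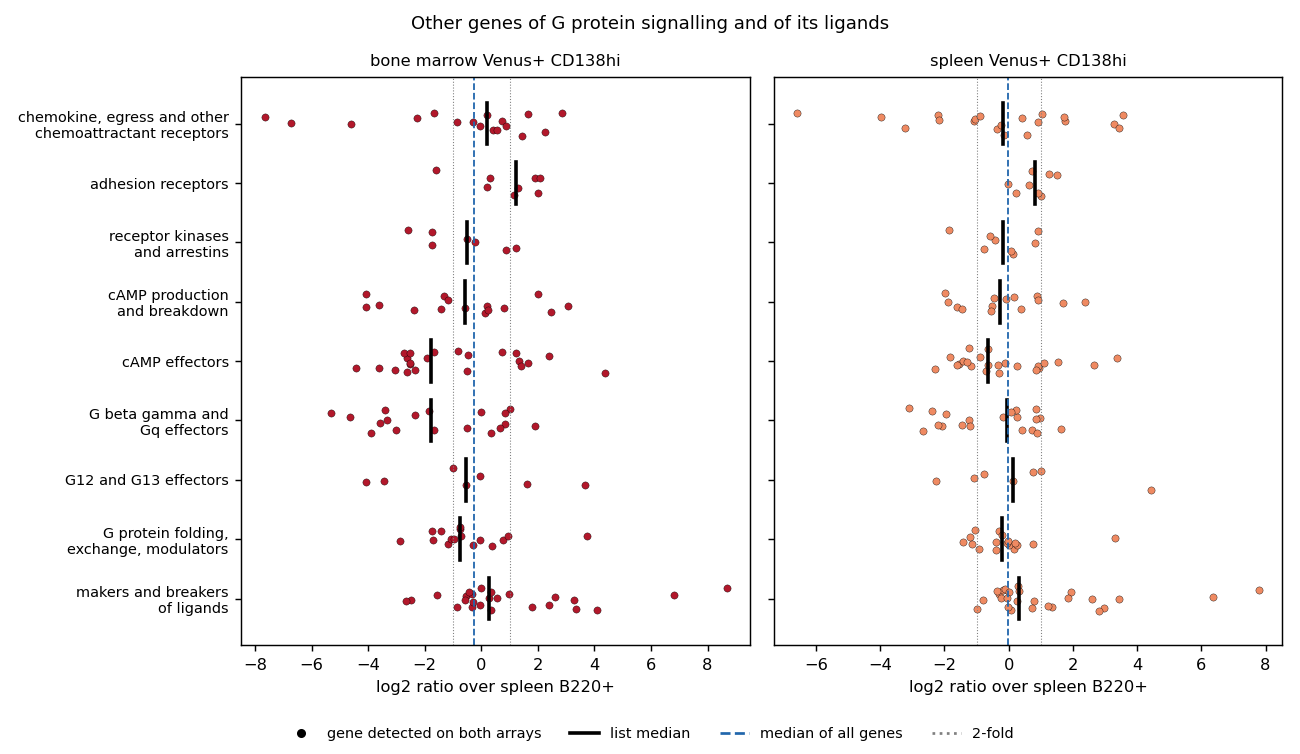
Log2 ratio over spleen B220+ cells of the genes of each list that were detected on both arrays, in marrow Venus+ and spleen Venus+ CD138hi cells. Black bars are list medians and the dashed line is the median of all genes, -0.24 in marrow Venus+ and -0.02 in spleen Venus+ cells, and Pla1a lies farthest right at 8.69 in marrow and 7.81 in spleen Venus+ cells.

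**Figure D5:**
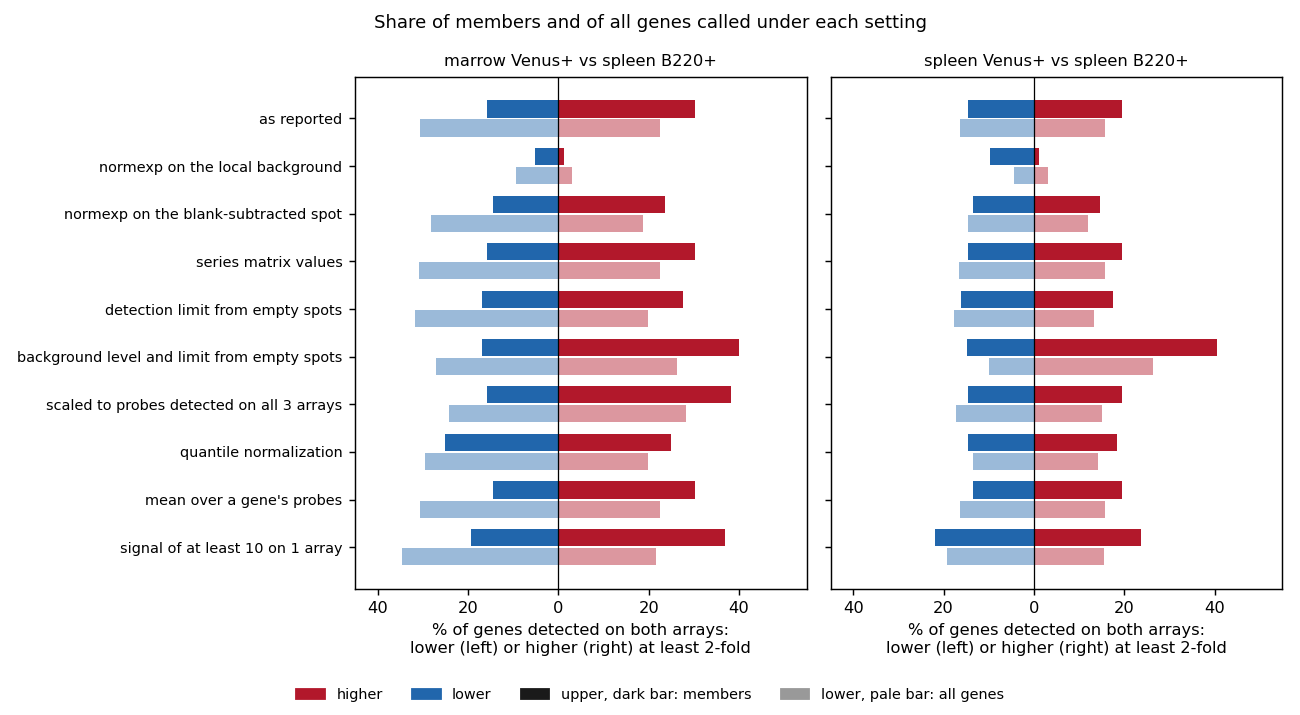
Share (%) of members (dark bars) and of all genes (pale bars) at least 2-fold lower (left) or higher (right) than B220+ cells, for marrow and spleen Venus+ CD138hi cells, as reported and under the other settings. As reported, 30.3% of members were higher in marrow and 19.5% in spleen Venus+ cells, and with the local background 1.32% in marrow and 1.22% in spleen Venus+ cells.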

How the data were processed

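Total RNA of each sorted population was amplified, labelled with Cy5 and hybridized to a Toray 3D-Gene mouse oligonucleotide array, per the labels. The deposited scanner files hold, per the file headers, an intensity for the spot median and for the local background. The authors also deposited a table of processed intensity values, linear and with a median of 25 in each column, used here as an alternative. Its values were recovered from the scanner files to within 4.05% among values of 10 or more, with 0 detection calls differing.

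Here each array's blank level, averaged over 2462 of its 2736 blank spots (the middle 90%), was subtracted, this level plus 2 SD was the detection limit, and the median detected probe was set to 25. Faulty spots (2 in marrow Venus+, 1 in spleen Venus+ and 0 in B220+) were left out. Gene symbols came from the platform annotation, and 28 member symbols were updated through the RefSeq table of GRCm38.p6, whose coordinates were used only for printed promoters and the order of neighbouring genes. The brightest probe on average stood for a gene with several.

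The call rule was checked on simulated arrays in which genes well above background were changed 4-fold. That check covers the working of the rule alone and cannot speak for the calls of dim members. Ratios past 4-fold, opposite calls and the highest and lowest G protein subunits and Rgs genes were named by rule (34 members), and other members named were chosen after their values were seen. The members, the lists and the rules were chosen with earlier results of these data known. Alternatives were normexp background correction with an offset of 50 (limma 3.58.1), the deposited table, a limit from spots without a probe, other scalings, quantile normalization, the mean over probes, a signal filter of 10 and a 3-fold threshold. Precision is limited by 1 array a group. For the scanner software, a version was not given in the sources used here. Scripts used Python 3.11.15 with numpy 2.4.6 and pandas 2.3.3.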

Additional observations from a re-analysis of the deposited data

Results flagged for a closer look

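For 4 members the log2 ratio over B220+ cells had opposite signs in the Venus+ populations, each past 2 spot errors. Gpr137b was at -1.90 in marrow and 0.87 in spleen Venus+ cells, Gna11 at -0.93 in marrow and 0.39 in spleen, Rgs3 at -0.62 in marrow and 0.46 in spleen, and Gpr19 at -0.47 in marrow and 0.62 in spleen. The difference was not tested, since each population has 1 array, and both ratios share the B220+ array. Of these only Gpr137b in marrow Venus+ cells passed 2-fold against B220+ cells. With scaling on the probes detected on all 3 arrays, Rgs3 (-0.32 ± 0.22) and Gpr19 (-0.18 ± 0.22) in marrow Venus+ cells lay within 2 spot errors. With the local background Gpr137b had the same sign in both, at 0.034 in marrow and 0.25 in spleen Venus+ cells. Gna11 (-0.094 in marrow and 0.19 in spleen), Rgs3 (-0.018 in marrow and 0.15 in spleen) and Gpr19 (-0.011 in marrow and 0.050 in spleen) kept opposite signs there. Those ratios were small, so the signs alone say little.

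Spots without a probe gave signal above the detection limit on every array, in 26.6% of such spots in marrow Venus+, 9.26% in spleen Venus+ and 48.3% in B220+ cells. Blank spots did so in 8.19% of cases in marrow Venus+, 7.97% in spleen Venus+ and 7.97% in B220+ cells. Dim members of the B220+ array are the ones nearest to this level.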

How the results depend on the processing

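No paired analysis was possible because each group has 1 array. Settings chosen after seeing the data were normexp on the blank-subtracted spot and a background level and limit both taken from spots without a probe. The first of these used no offset, unlike the local background setting, so the background and the offset differ together between them.

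For spleen Venus+ over B220+ cells, the count of higher members (16 as reported) was 1 with the local background, 30 with the level from spots without a probe and 8 at 3-fold, and the median (0.23) was -0.048 and 0.68 under the first 2 of these. For marrow Venus+ over B220+ cells, the higher count (23) was 1 with the local background and 13 at 3-fold, and the lower count (12) was 4 with the local background and 19 with quantile normalization. The median (0.06) was -0.14 with a limit set by spots without a probe, 0.35 with scaling on probes detected on all 3 arrays and -0.14 with the filter on dim signals. For marrow over spleen Venus+ cells, the higher count (6) was 2 with the local background, 3 with normexp on the blank-subtracted spot, 15 with the other scaling and 0 at 3-fold. The lower count (7) was 0, 4, 2 and 1 under those settings and 12 with the level from spots without a probe. The median (-0.02) was -0.23 with that level and 0.31 with the other scaling.

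Of the called ratios of members named by rule, those that changed sign did so with the local background, apart from Gpr146, and the cause was not tested. In spleen Venus+ over B220+ cells these were P2rx3 (-0.14), Gng10 (1.31), P2ry10 (0.24), Gpr123 (-0.011), Gpr61 (-0.047) and Gnai1 (-0.021). In marrow Venus+ over B220+ cells they were Gng10 (0.78), P2ry10 (0.037) and Gpr137b (0.034), and in marrow over spleen Venus+ cells Gnai3 (0.036). Gpr146 was at 0.33 in marrow Venus+ over B220+ cells with the mean over its probes. With the local background the called ratios of Gpr23 (-0.034 in spleen Venus+ over B220+) and Gnao1 (0.0075 in marrow over spleen Venus+) turned too, and some ratios under 2-fold changed sign with the local background or the other scaling. Of 48 called ratios of named members, 8 were past 2-fold in either direction with the local background. These include Gng10 in spleen Venus+ over B220+ cells, which was called lower and turned to 1.31, so its call was not kept. Past 2-fold were 44 with normexp on the blank-subtracted spot, 47 with the other scaling and 45 with quantile normalization. With the mean over probes 46 were, and all 48 were in the deposited table. Signals within a few units of the detection limit cannot order members.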
